A study of Mus musculus with 8 samples.

Results

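The genes of the mitochondrial ribosomal proteins were examined in skeletal stem cells sorted from 2 skeletal sites of young mice. Members were all rows of the deposited protein-coding expression table whose gene symbol begins with Mrpl or Mrps followed by a number, which gave 77 of 22053 rows. Cells came from wild-type mice at postnatal day 10, with no treatment or introduced allele named in the labels. Candidate vertebral skeletal stem cells, called vSSC, were sorted from the spine, and long bone skeletal stem cells, called lbSSC, from femur and tibia. Both were gated as CD200 positive and as lacking the blood and endothelial markers CD45, TER119 and CD31 as well as CD105, 6C3 and Thy. Each site had 4 bulk RNA-seq libraries, 2 from males (replicates 1 and 2) and 2 from females (replicates 3 and 4). The labels name the samples as biological replicates without saying how many animals each holds, so every p-value here reflects the spread of these libraries, which may in part be technical. A gate of this kind yields a population enriched by surface markers and not a single defined cell type.

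Mitochondria carry their own ribosome, which makes the few proteins encoded in mitochondrial DNA, all of them parts of the respiratory chain and ATP synthase. Its RNAs come from mitochondrial DNA, but every one of its proteins is encoded in the nucleus, made in the cytosol and imported. It has a large subunit, built of Mrpl proteins, and a small subunit, built of Mrps proteins. Some of these proteins descend from bacterial ribosomal proteins and others were added in the evolution of mitochondria. Of the 77 genes, 50 encode large-subunit proteins, 30 with a bacterial counterpart and 20 without, and 26 encode small-subunit proteins, 16 with a counterpart and 10 without. Mrps18a and Mrps30 carry a small-subunit name, yet their proteins sit in the large subunit and were counted there. The remaining gene, Mrps36, bears the family name, but its protein is now known as a component of the 2-oxoglutarate dehydrogenase complex. The 13 proteins that mitochondrial DNA encodes were not analysed here.

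The 77 genes are scattered over 17 chromosomes (GRCm38). RefSeq promoter windows (GRCm38.p6, 250 bases before the start to 50 after it) matched 68 of the 77 genes with 74 windows. The 150 bases before the start are shown for 4 genes whose stretch holds no annotated exon: Mrpl52, the gene with the highest level, Mrpl34 and Mrpl20, both higher in vSSC, and Mrps22, among the genes with the lowest levels. Capitals mark the ETS-type motif CCGGAAG, on the strand shown or as its reverse complement CTTCCGG, which factors such as GABP, an activator of nuclear genes for mitochondrial proteins, can bind.
Mrpl52, chr14:54426759-54426908, + strand: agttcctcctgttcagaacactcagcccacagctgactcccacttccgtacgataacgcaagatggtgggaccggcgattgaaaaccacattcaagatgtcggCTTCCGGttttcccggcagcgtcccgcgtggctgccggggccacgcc
Mrpl34, chr8:71464776-71464925, + strand: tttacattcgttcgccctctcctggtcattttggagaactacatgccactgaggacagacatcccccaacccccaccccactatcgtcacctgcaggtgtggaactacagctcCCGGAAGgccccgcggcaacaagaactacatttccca
Mrpl20, chr4:155802728-155802877, + strand: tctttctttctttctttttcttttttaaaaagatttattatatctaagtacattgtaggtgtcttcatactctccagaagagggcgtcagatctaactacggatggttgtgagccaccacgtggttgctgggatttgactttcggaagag
Mrps22, chr9:98601680-98601829, - strand: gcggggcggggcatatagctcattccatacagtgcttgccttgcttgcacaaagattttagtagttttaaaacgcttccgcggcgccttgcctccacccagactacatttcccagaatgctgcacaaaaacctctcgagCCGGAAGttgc

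Windows were searched on both strands for CCGGAAG, for the core of the NRF1 site (GCATGCGC), for the YY1 site (AAGATGGC), and for CCAAT and TATAAA. The ETS-type and YY1 letters can overlap at their ends, and a window with both counted for both. CCGGAAG was present in 25 of the 74 windows (33.8%), against 17.8% of the 10708 windows of genes tested for expression. AAGATGGC occurred in 12 windows (16.2%, against 4.60%) and GCATGCGC in 8 (10.8%, against 5.33%). At least 1 of the 3 was found in 37 of 74 windows (50%), against 25.2% for the tested genes. CCAAT stood in 40.5% of member windows against 37.5%, and TATAAA in 6.76% against 6.87%. Median GC content was 58.5% for the members and 61.3% for the tested genes. Among the 25 windows of genes called higher in vSSC by the test described with the site comparison, 8 held CCGGAAG, 1 AAGATGGC and 1 GCATGCGC. Of the 49 windows of the other members, 17, 11 and 7 held them. These counts describe letters in a fixed window, and no binding was measured.

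Every member was expressed in every library. Levels are given as FPKM, fragments scaled by transcript length and by sequencing depth, a unit that allows comparison between genes of different length. Mean FPKM over the 8 libraries ran from 4.32 for Mrpl1 to 264.6 for Mrpl52, a 61.3-fold range with a median of 27.0. Most of their products join the particle in equal numbers, while the transcript levels were far from equal. The 4 highest genes, Mrpl52, Mrpl17, Mrpl20 and Mrpl33, supplied 21.4% of the summed FPKM of all members. The 10 highest supplied 40.1% and the 10 lowest 2.76%.

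Mrpl52, a large-subunit protein with no bacterial counterpart, stood at 340.1, 303, 345 and 262 FPKM in vSSC replicates 1 to 4. In lbSSC replicates 1 to 4 it stood at 238, 233, 215 and 181 FPKM. It exceeded the next gene, Mrpl17, in all 8 libraries. Of the 76 neighbouring pairs in the order of levels, only 3 kept the same order in all 8 libraries, so most neighbours changed places in at least 1 library. At the low end were Mrpl1 (4.77 ± 1.32 FPKM in vSSC and 3.87 ± 0.982 in lbSSC, SD, n = 4 each), Mrpl47 (6.20 ± 1.99 and 5.99 ± 0.939) and Mrps22 (7.78 ± 2.05 and 5.69 ± 1.19).

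**Figure D1:**
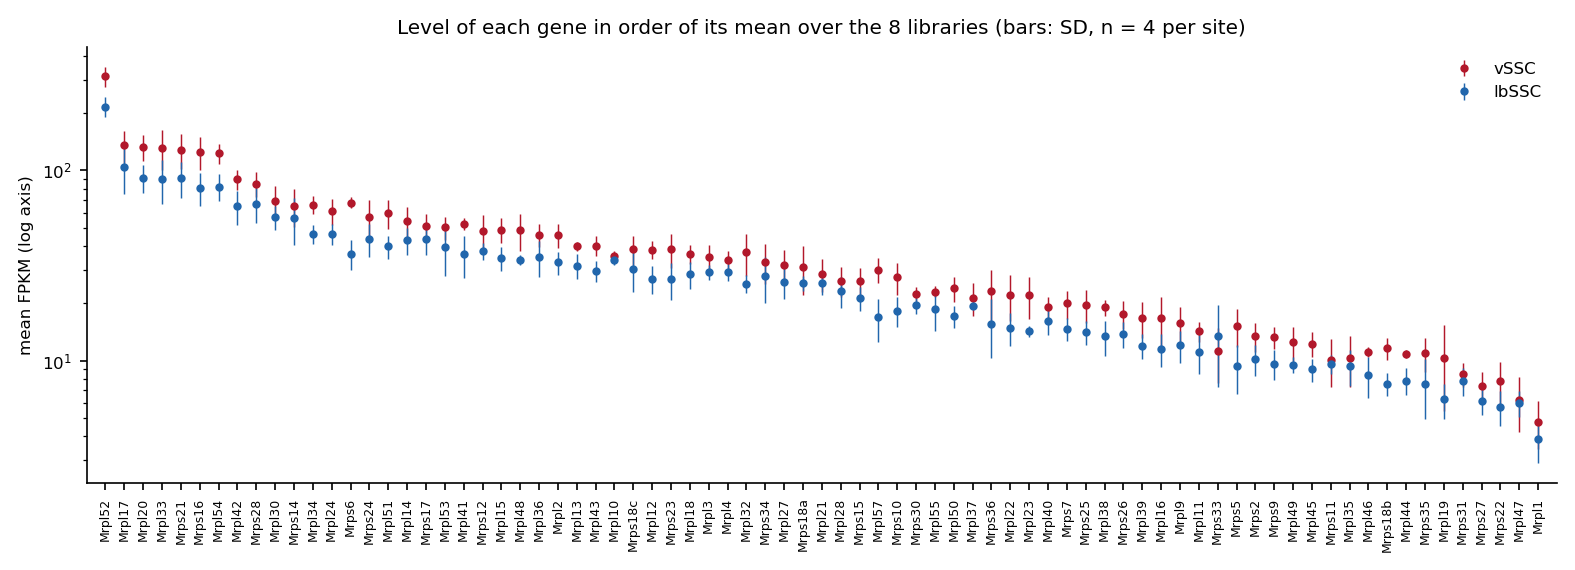
Mean FPKM of each mitochondrial ribosomal protein gene on a log axis, in order of the mean over the 8 libraries, with 1 point per site and bars for the SD (n = 4 per site). The order runs from Mrpl52 at 264.6 FPKM to Mrpl1 at 4.32 FPKM, and vSSC points lie above lbSSC points for 76 of 77 genes.

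The order of the levels was much alike in all libraries. Spearman's rho across the 77 genes was 0.961 to 0.984 between vSSC libraries, 0.964 to 0.978 between lbSSC libraries and 0.958 to 0.978 between libraries of different sites. These are descriptions across genes, which are not replicates. Members were short, with a median exon length of 1418 bases against 3325 bases for all tested genes. Exon length here joins the exons of all annotated protein-coding transcripts of a gene, so a single transcript can be shorter.

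Summed over the 77 genes, the level was 3577, 3139, 3640.5 and 2710.5 FPKM in vSSC replicates 1 to 4. The sums in lbSSC replicates 1 to 4 were 2796, 2602, 2221 and 2023 FPKM. The site means were 3267 ± 433 and 2410.3 ± 352 FPKM (SD, n = 4 each), a ratio of 1.36. The sites overlapped, since vSSC replicate 4 lay below lbSSC replicate 1, and 44 of 77 genes were higher in lbSSC replicate 1 than in vSSC replicate 4. The libraries also differed along the whole set: 67 of 77 genes had their highest value in vSSC replicate 1 or 3, and 70 of 77 had their lowest in lbSSC replicate 3 or 4. FPKM totals over all genes ran from 460302 to 571869 and were larger in vSSC. As a share of that total, members held 0.593% ± 0.0519 in vSSC and 0.485% ± 0.0427 in lbSSC, a ratio of 1.22.

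The proteins of the cytosolic ribosome, which makes all nuclear-encoded proteins, took up a far larger share and moved with the members. Their genes held 21.2%, 19.5%, 21.5% and 18.3% of FPKM in vSSC replicates 1 to 4 and 18.4%, 17.9%, 15.7% and 15.7% in lbSSC replicates 1 to 4. The member sum was 2.94% ± 0.0603 of the cytosolic ribosomal sum in vSSC and 2.86% ± 0.0706 in lbSSC (SD, n = 4 each). This proportion varied far less between libraries than either sum did. In bulk samples, fewer cells of a type and less RNA per cell cannot be told apart.

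**Figure D2:**
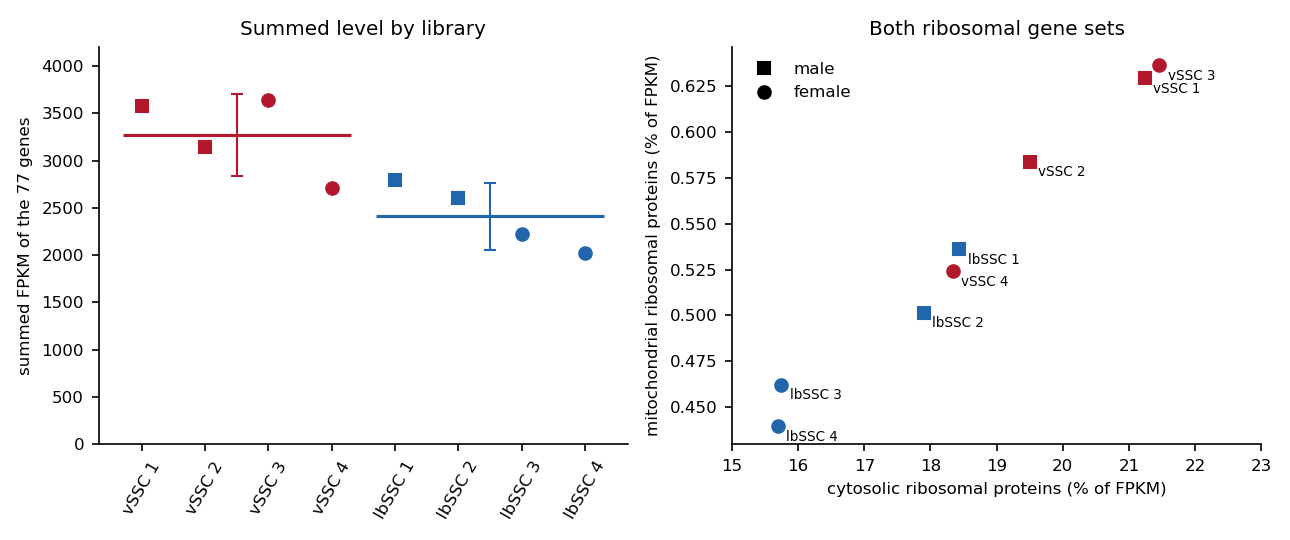
Left, summed FPKM of the 77 genes in each library, with lines at the site means and bars for the SD (n = 4 per site), and right, their percent of total FPKM against that of cytosolic ribosomal proteins, 1 point per library, with squares for males and circles for females. The member sum runs from 2023 FPKM in lbSSC replicate 4 to 3640.5 FPKM in vSSC replicate 3, and the libraries with the larger cytosolic share also have the larger member share.

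The site comparison asked how candidate vertebral stem cells differ from their long bone counterparts. Mitochondrial ribosomal protein genes were higher in vSSC as a set by a modest amount, and none was significantly lower. On the log2(FPKM + 1) scale, 22 of 77 members (28.6%) were called higher in vSSC at a limma adjusted p under 0.05, where 14.3% of all 10729 tested genes were. No member was called lower, against 9.17% of all tested genes, and none had an unadjusted p under 0.05 in that direction, while 47 had one in the other. The difference, vSSC minus lbSSC, was positive for 76 of 77 members against 58.6% of tested genes. Its median was 0.39 for members and 0.08 for all tested genes.

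Differences ran from -0.19 for Mrps33 to 0.90 for Mrps6. The 2 sites did not overlap, with all vSSC libraries above all lbSSC libraries, for 18 members (23.4%), against 15.8% of tested genes, and 15 of these 18 were among the 22 called. The called genes spanned 0.43 to 0.90 with a median of 0.53, and the other 55 spanned -0.19 to 0.58 with a median of 0.35. Called genes were higher expressed (median 40.2 against 21.0 FPKM) and had slightly smaller errors (median SE 0.14 against 0.16). A gene outside the called group was therefore not shown to differ from those in it.

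**Figure D3:**
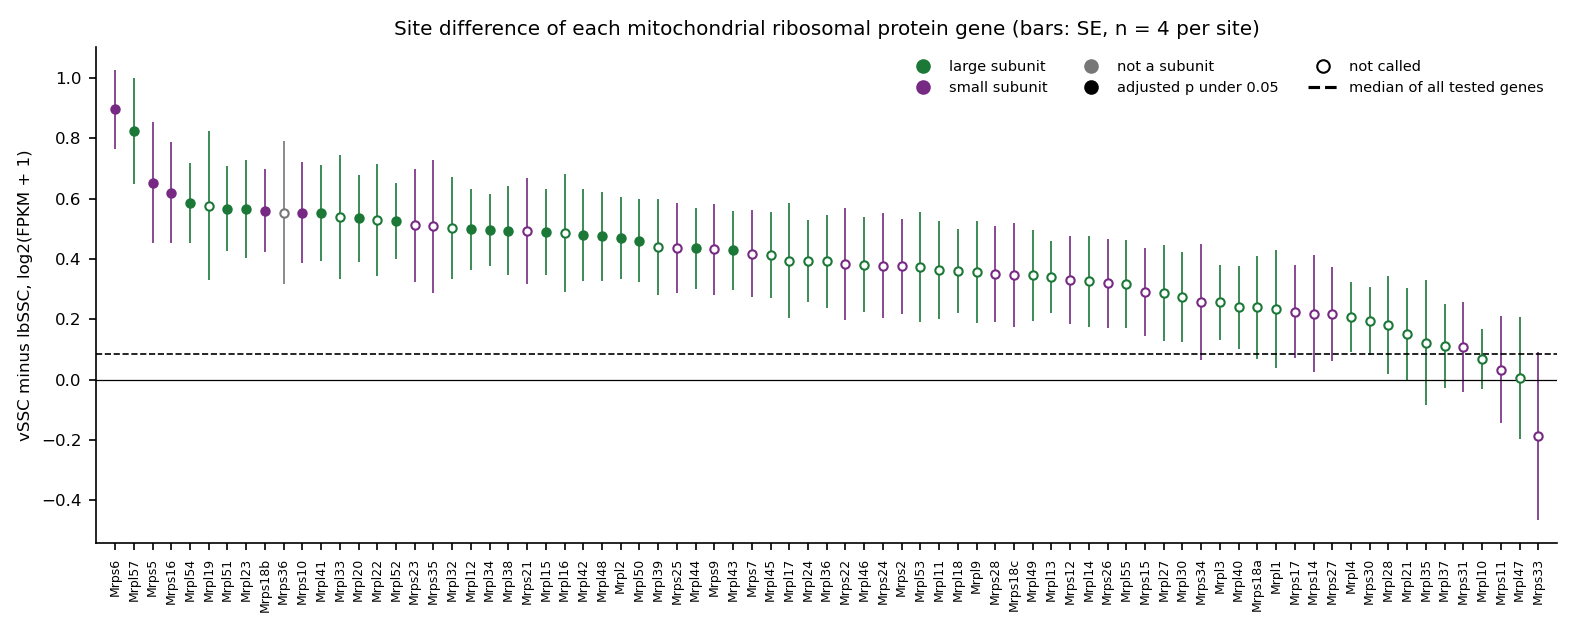
Difference between vSSC and lbSSC in log2(FPKM + 1) for each of the 77 genes, coloured by subunit, with bars for the SE (n = 4 per site), a dashed line at the median of all tested genes (0.08) and filled points for genes called at adjusted p under 0.05. All but Mrps33 lie above 0, and the filled points run from 0.43 to 0.90.

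In the large subunit, 17 of 50 genes rose in vSSC (34%, against 14.3% of all tested genes), with a median difference of 0.39 over all 50. The proteins without a bacterial counterpart contributed 11 of 20 (55%, median 0.44) and those with one 6 of 30 (20%, median 0.36), the latter near the share over all tested genes. Whether these groups differ was not tested, and the median SE of a single member was 0.15. The risen genes without a counterpart were Mrpl57, Mrpl54, Mrpl51, Mrpl41, Mrpl52, Mrpl38, Mrpl42, Mrpl48, Mrpl50, Mrpl44 and Mrpl43. Those with one were Mrpl23, Mrpl20, Mrpl12, Mrpl34, Mrpl15 and Mrpl2.

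Mrpl57 (chr14:57826239-57828745, + strand), a small protein of the large subunit, showed the largest difference there. Its values were 33.8, 27.1, 34.2 and 25.4 FPKM in vSSC replicates 1 to 4 and 15.8, 22.2, 17.6 and 11.7 FPKM in lbSSC replicates 1 to 4. No lbSSC library reached the lowest vSSC library. The means were 30.1 ± 4.53 and 16.8 ± 4.32 FPKM, a difference of 0.82 ± 0.18 (SE) with an adjusted p of 0.00722. Mrpl54 (chr10:81264713-81266934, - strand) measured 129.9, 114, 140.1 and 109 FPKM in vSSC and 98.1, 87.8, 69.7 and 72.7 in lbSSC, also without overlap (0.59 ± 0.13, adjusted p 0.00966). Mrpl52, the most abundant member, rose from 217 ± 26.1 to 312 ± 38.4 FPKM (0.52 ± 0.13, adjusted p 0.0128). Its lowest vSSC library, at 262 FPKM, lay above its highest lbSSC library, at 238 FPKM.

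Mrpl51 rose from 39.8 ± 5.62 to 59.7 ± 10.5 FPKM (0.57 ± 0.14, adjusted p 0.0154), without overlap between the sites. Mrpl23, which sits near the exit of the tunnel through which new proteins leave, went from 14.3 ± 0.984 to 22.1 ± 5.48 FPKM (0.57 ± 0.16, adjusted p 0.0281). Its vSSC values spread widely, at 27.6, 18.9, 25.8 and 16.1 FPKM, while the lbSSC values lay between 13.1 and 15.4 FPKM. Mrpl34, whose promoter stretch is shown above, rose from 46.4 ± 5.32 to 65.9 ± 7.20 FPKM (0.50 ± 0.12, adjusted p 0.0129). Mrpl20, the third most abundant member, rose from 91.2 ± 15.3 to 132 ± 20.7 FPKM (0.53 ± 0.15, adjusted p 0.0222). Mrpl44, a double-stranded RNA-binding protein related to RNase III, rose from 7.83 ± 1.28 to 10.8 ± 0.519 FPKM (0.43 ± 0.13, adjusted p 0.0368).

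A high level did not always come with a call. Mrpl33 stood at 164, 129.6, 142 and 90.4 FPKM in vSSC and 115, 107, 68.1 and 72.5 in lbSSC. Its difference of 0.54 ± 0.21 is as large as that of Mrpl20, but the libraries overlapped and the adjusted p was 0.0790. Mrpl17 likewise overlapped, at 136 ± 26.3 against 104 ± 29.1 FPKM (0.39 ± 0.19, adjusted p 0.148).

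The stalk of the large subunit is the flexible arm that recruits translation factors, and Mrpl10, Mrpl11 and Mrpl12 form it and its base. Its members gave different values. Mrpl12, the stalk protein itself, was 42.1, 36.6, 41.3 and 33.1 FPKM in vSSC and 31.8, 24.7, 29.3 and 22.0 FPKM in lbSSC, a rise without overlap (0.50 ± 0.13, adjusted p 0.0219). Mrpl10, the protein that anchors it, was 37.3, 33.9, 37.7 and 33.4 FPKM in vSSC and 36.3, 34.8, 32.5 and 31.8 in lbSSC. The sites overlapped, and the difference of 0.07 ± 0.10 (adjusted p 0.636) had a 95% confidence interval of -0.15 to 0.29. Mrpl11, which binds the RNA at the stalk base, lay between them (0.36 ± 0.16, adjusted p 0.122).

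In the small subunit, 5 of 26 genes rose in vSSC (19.2%), near the 14.3% of all tested genes, with a median difference of 0.38 over all 26 against 0.08. They were Mrps6, Mrps5, Mrps16 and Mrps10, which have bacterial counterparts (4 of 16), and Mrps18b, of the group without one (1 of 10). The sites did not overlap for 2 of the 26, Mrps6 and Mrps18b.

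Mrps6 (chr16:92058270-92112227, + strand) differed most of all members. It measured 66.4, 69.9, 72.7 and 61.9 FPKM in vSSC replicates 1 to 4 and 44.4, 36.4, 28.3 and 36.2 FPKM in lbSSC replicates 1 to 4. Every vSSC library lay far above every lbSSC library. The means of 67.8 ± 4.65 and 36.3 ± 6.56 FPKM gave a ratio of 1.86, and the difference of 0.90 ± 0.13 (adjusted p 0.000738) had a 95% confidence interval of 0.61 to 1.18. The gene shares its strand and first part with Slc5a3, which encodes a sodium and myo-inositol cotransporter. Slc5a3 was itself higher in vSSC (3.90 ± 0.646 against 2.40 ± 0.484 FPKM, 0.53 ± 0.16, adjusted p 0.0375), and how reads of shared exons were divided between both genes is not stated in the labels.

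Mrps5, a protein near the mRNA entry site, measured 18.1, 14.9, 17.2 and 10.5 FPKM in vSSC and 8.56, 13.1, 8.82 and 6.84 FPKM in lbSSC (0.65 ± 0.20, adjusted p 0.0373). The sites overlapped because lbSSC replicate 2 exceeded vSSC replicate 4. Mrps16 rose from 80.9 ± 15.6 to 125 ± 24.8 FPKM (0.62 ± 0.17, adjusted p 0.0219), again with overlap between lbSSC replicate 1 and vSSC replicate 4. Mrps25 just missed the threshold (19.6 ± 3.79 against 14.1 ± 2.03 FPKM, 0.44 ± 0.15, adjusted p 0.0525).

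The 3 Mrps18 genes encode related proteins that take different places in the ribosome. Mrps18b measured 11.4, 10.4, 13.8 and 10.8 FPKM in vSSC and 8.49, 8.44, 6.87 and 6.41 in lbSSC. It rose without overlap (0.56 ± 0.14, adjusted p 0.0144, 95% confidence interval 0.26 to 0.86). Mrps18c, the small-subunit form nearest to the bacterial protein, was 38.4 ± 6.66 against 30.3 ± 7.39 FPKM (0.35 ± 0.17, adjusted p 0.163, interval -0.03 to 0.73). Mrps18a, the large-subunit form, was 31.1 ± 9.02 against 25.5 ± 2.23 FPKM (0.24 ± 0.17, adjusted p 0.323, interval -0.13 to 0.61). Whether the 3 forms differ from each other was not tested.

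Mrps30, the other large-subunit protein with a small-subunit name, was 22.5 ± 1.82 against 19.5 ± 1.93 FPKM (0.19 ± 0.11, adjusted p 0.230). Mrpl37, which lies beside it in the large subunit, was 0.11 ± 0.14 higher (adjusted p 0.581). Mrps36 measured 33.0, 21.3, 20.2 and 17.9 FPKM in vSSC and 15.2, 22.5, 15.3 and 9.54 in lbSSC. Its libraries overlapped, and the difference of 0.55 ± 0.24 had an adjusted p of 0.109.

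Mrps33, singled out after its values were seen because it alone had a negative difference, measured 16.7, 9.95, 9.07 and 9.22 FPKM in vSSC and 11.2, 21.9, 13.6 and 7.23 in lbSSC. Both sites spread widely around similar values, with means of 11.2 ± 3.65 and 13.5 ± 6.20 FPKM. The difference was -0.19 ± 0.28 (adjusted p 0.651).

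**Figure D4:**
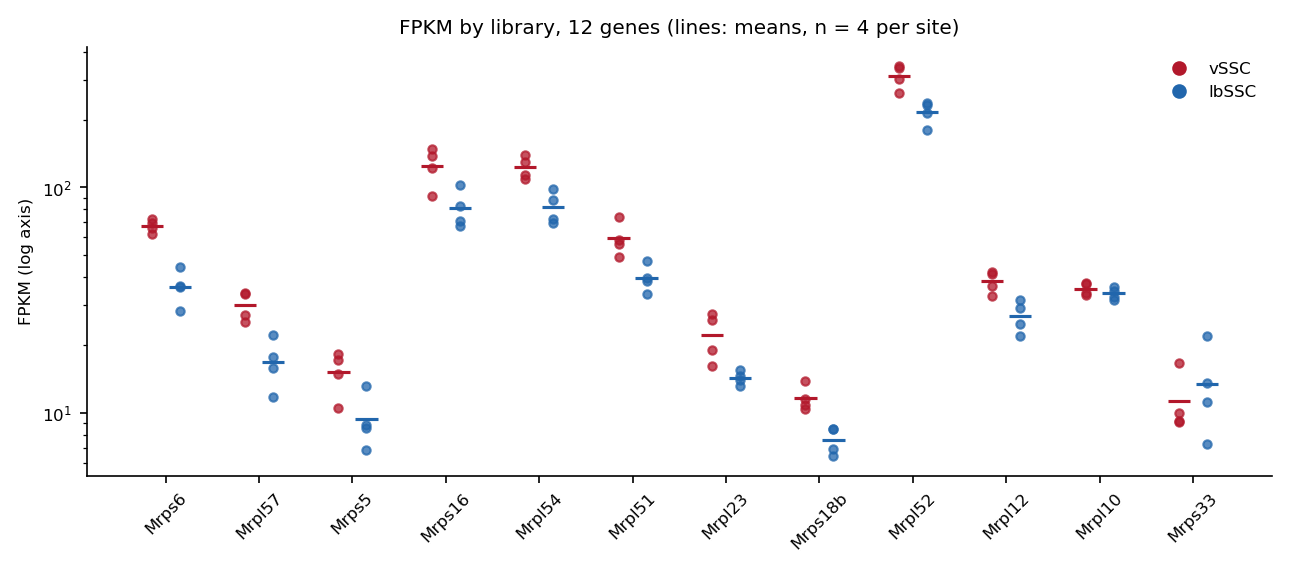
FPKM in each of the 8 libraries on a log axis for 12 members, 1 point per library and a line at each site mean (n = 4 per site). For Mrps6 the vSSC points at 61.9 to 72.7 FPKM stand clear of the lbSSC points at 28.3 to 44.4 FPKM, while for Mrpl10 the points of both sites overlap and lie between 31.8 and 37.7 FPKM.

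Because most members moved together, the table was also scaled so that the mean log level of the members was equal in all libraries, a setting added after the data were seen. Relative to that mean, 3 of 77 were called: Mrps6 was higher in vSSC (0.52 ± 0.12, adjusted p 0.0113), as was Mrpl57 (0.46 ± 0.13, adjusted p 0.0311), and Mrpl10 was lower (-0.30 ± 0.10, adjusted p 0.0421). In that scaling 3.52% of all tested genes were called higher and 21.4% lower. The scaling itself places the members near 0 (median 0.02) and moved the median of all tested genes to -0.24. The member counts therefore cannot be weighed against those shares. The remaining 74 members, Mrps33 among them (-0.54 ± 0.25, adjusted p 0.134), were not called.

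The number of called members depended on single libraries. Leaving out vSSC replicate 1, vSSC replicate 3 or lbSSC replicate 4 left 7 called, and the same 7 genes each time: Mrpl34, Mrpl51, Mrpl52, Mrpl54, Mrpl57, Mrps18b and Mrps6. The share of all tested genes called higher was 8.06%, 8.32% and 7.82% in these fits, and 7 of 77 members is near that share. Mrps5, Mrps16, Mrpl12, Mrpl20, Mrpl23 and Mrpl44 were among the genes whose call was lost in each of them. Without lbSSC replicate 3 the count was 8 (background 7.92%), without vSSC replicate 2 it was 11 (10.1%), and without vSSC replicate 4 it was 38 (17.5%). With vSSC replicates 1 and 3 both left out, 1 of 77 members, Mrps6, was called, below the 4.69% of tested genes. The median difference was then 0.27. Leaving out lbSSC replicate 1 or 2 gave 30 and 22 (14.1% and 13.3%). The median of the members stayed between 0.31 and 0.46 when single libraries were left out.

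Scaling moved the members and the other genes together. The median of all tested genes shifted from 0.08 to -0.003 under median-of-ratios scaling and to -0.04 when each library was rescaled to 1 sum. The member median exceeded it by 0.31 in the deposited scale, 0.30 under median-of-ratios scaling, 0.24 under quantile normalization and 0.29 after rescaling to 1 sum. Members called higher numbered 20, 13 and 12 under these 3 scalings, where 11.3%, 10.2% and 9.34% of all tested genes were called higher, and each of these members was among the original 22. Differences were positive for 73, 73 and 70 of 77, and Mrpl10, Mrpl37 and Mrpl47 took a negative sign under some of them. Of all calls across tested genes, 60.9% were higher in vSSC in the deposited scale, 49.5% under median-of-ratios scaling and 42.4% after rescaling to 1 sum. Over all tested genes with a length, the difference fell with exon length (Spearman's rho -0.32, and -0.15 across the 77 members). Removing that trend left 11 of 77 members called higher, near the 13% of tested genes. Of these 11, 10 were among the 22. The member median was then 0.23, against 0.05 for all tested genes, an excess of 0.18. With no filter on low values the count was 10 (7% of tested genes), and with a pseudocount of 0.1 it was 22 (14%).

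With the share of cytosolic ribosomal proteins as a covariate in limma, 0 of 77 members were called. An unadjusted p under 0.05 was found for 3 members, 1 higher and 2 lower in vSSC, and for 1834 of the 10729 tested genes. The background fell as well, to 2.18% of tested genes called higher. The member median was then 0.01, with 39 of 77 positive, and Mrps6 had an adjusted p of 0.0628. Since that share was itself higher in vSSC, the site and the share cannot be told apart with these libraries.

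**Figure D5:**
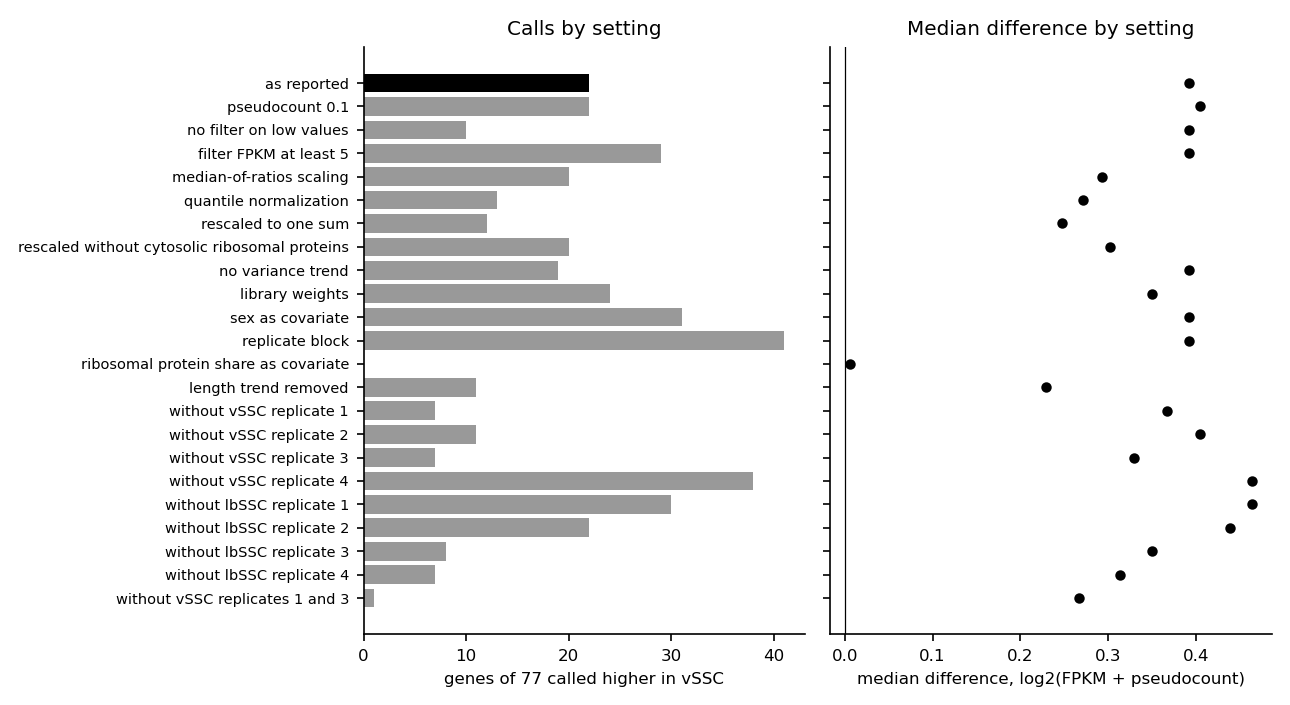
Number of members called higher in vSSC (left) and their median difference in log2 units (right) under the reported fit and 22 alternative settings, without the scaling to the members' own mean. Counts run from 0 with the cytosolic ribosomal share as a covariate to 41 with the replicate number as a block, where 18.8% of tested genes were called higher, and all medians but that of the covariate setting lie above 0.2.

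Other genes of the mitochondrial ribosome and its environment were read from fixed lists. Of 6 subunits that bear other names, 2 rose: Ptcd3, an RNA-binding small-subunit protein (9.35 ± 1.15 against 6.59 ± 1.22 FPKM, 0.45 ± 0.15, adjusted p 0.0445), and Chchd1 (94.6 ± 18.6 against 65.9 ± 12.2 FPKM, 0.51 ± 0.17, adjusted p 0.0483). These 2 of 6 are 33.3%, against 14.3% of all tested genes. The median of the 6 was 0.39, equal to that of the members. Dap3, a GTP-binding small-subunit protein, was not called (28.9 ± 3.10 against 29.6 ± 4.68 FPKM, -0.03 ± 0.13, adjusted p 0.886). The calls of Ptcd3 and Chchd1 held in 7 and 6 of 22 alternative settings.

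Among assembly and rRNA-modifying factors, 4 of 23 tested genes rose (17.4%, near the 14.3% of all tested genes) and 0 fell, with a median of 0.24 against 0.08. They included Rnmtl1, a methyltransferase of the large-subunit rRNA (3.97 ± 1.05 against 2.12 ± 0.390 FPKM, 0.65 ± 0.18, adjusted p 0.0222), and Mterf3 (0.38 ± 0.11, adjusted p 0.0344). Translation factors and mRNA handling gave 3 of 15 higher (20%, against the same 14.3%) and 0 lower, with a median of 0.23. Tufm, the elongation factor that delivers tRNAs to the mitochondrial ribosome, rose from 10.8 ± 0.813 to 15.8 ± 2.54 FPKM (0.51 ± 0.13, adjusted p 0.0180). Taco1, a translational activator, rose by 0.51 ± 0.16 (adjusted p 0.0382). Of 18 tested mitochondrial aminoacyl-tRNA synthetase genes, 1 rose (5.56%, against 14.3%), Cars2 (0.53 ± 0.16, adjusted p 0.0357). Their median was 0.17. The calls of Mterf3 and Cars2 were lost in 13 of 22 alternative settings each and that of Taco1 in 13 of 21, median-of-ratios scaling among them.

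The machinery that transcribes and copies mitochondrial DNA had 0 of 8 genes called in limma. Of all tested genes, 23.5% were called in either direction. The median of the 8 was 0.29. Tfam, which packages that DNA and starts its transcription, was 16.5 ± 2.23 against 15.4 ± 3.13 FPKM (0.11 ± 0.16, adjusted p 0.648). Polrmt, its RNA polymerase, was 2.59 ± 1.06 against 2.08 ± 0.644 FPKM (0.20 ± 0.24, adjusted p 0.572). Of 7 tested regulators of nuclear genes for mitochondria, 0 were called, against the same 23.5%, and the median was 0.02. Nrf1 was 7.15 ± 0.346 against 7.14 ± 1.50 FPKM, and Gabpa, the DNA-binding part of GABP, 14.3 ± 3.84 against 11.9 ± 2.01 FPKM (0.22 ± 0.18, adjusted p 0.377). Myc, a growth regulator, was 31.1 ± 12.4 against 36.9 ± 1.84 FPKM (-0.32 ± 0.22, adjusted p 0.314). Ppargc1a, a coactivator of mitochondrial biogenesis, was too low to test. The 4 vSSC libraries list it at 0, and lbSSC replicates 1 to 4 list it at 0.0621, 0.664, 0.731 and 0.105 FPKM. No activity of these factors was measured.

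Cytosolic ribosomal protein genes, 84 tested, showed nearly the same shift as the members. Of these, 35 were called higher (41.7%, against 14.3% of all tested genes) and 0 lower (against 9.17%). The median difference was 0.39. The mitochondrial and cytosolic medians thus lay at the same value in this comparison, though the cytosolic list, chosen by symbol, also holds rows named like pseudogenes.

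The sexes could be compared with 4 libraries each, with the site as a covariate. No member was called (0 of 77, limma, smallest adjusted p 0.487), where 0.0466% of tested genes were, and 9 had an unadjusted p under 0.05, against 8.31% of tested genes. The male minus female difference was positive for 71 of 77 members, against 64.8% of tested genes, and its median was 0.20 against 0.07. Mrpl33 averaged 147 FPKM in vSSC males, 116 in vSSC females, 111 in lbSSC males and 70.3 in lbSSC females, 2 libraries each (0.50 ± 0.15, adjusted p 0.487). In the interaction of site and sex, 0 of 77 members were called and 2, Mrpl38 and Mrps22, had an unadjusted p under 0.05, against 0% of tested genes called and 3.77% with an unadjusted p under 0.05. The site difference in males minus that in females was positive for 12 of 77 members. Its median was -0.26 for members and -0.06 for all tested genes, and this lean of the set was not tested. For single members, a site difference that differs between the sexes was not detectable with 2 libraries per site and sex.

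Marker genes were read beside these results. Of the gate's markers, Cd200 averaged 109 FPKM in vSSC and 101 in lbSSC, while Thy1, Pecam1, Ptprc and Eng averaged under 1 FPKM at both sites. Enpep, the gene of 6C3, averaged 0.319 FPKM in vSSC and 1.22 in lbSSC. Among the skeletal markers, Sox9 averaged 114 FPKM in vSSC and 98.7 in lbSSC, and Acan 442 and 477. Runx2 was lower, at 14.96 FPKM in vSSC and 12.9 in lbSSC. Prrx1 averaged 16.1 FPKM in vSSC and 31.55 in lbSSC. The sites did not overlap for Prrx1, at 12.2 to 20.98 FPKM in vSSC and 23.1 to 41.9 in lbSSC. The summed skeletal markers, dominated by Col2a1, were lowest in vSSC replicates 1 and 3 (7834 and 7885 FPKM), where most members peaked, and highest in lbSSC replicate 4 (20766 FPKM), where 57 members were lowest. The other 5 libraries held 11342 to 15963 FPKM. Neutrophil and monocyte markers summed to 287 to 456 FPKM in vSSC and 27.6 to 117 in lbSSC. All 7 were detected, although Ptprc, the gene of CD45, was under 1 FPKM everywhere. Itgam alone among them went the other way, averaging 0.339 FPKM in vSSC and 0.747 in lbSSC. A further row under the Itgam symbol averaged 4.98e-09 FPKM in vSSC and 0.0307 in lbSSC. Red cell markers summed to 5348, 4806, 4065 and 3797 FPKM in vSSC replicates 1 to 4, although the gate excludes TER119. In lbSSC replicates 1 to 4 the sums were 8742, 8216, 4240.1 and 4441 FPKM. At both sites the male libraries, replicates 1 and 2, held more than the female ones. Glial markers summed to 7.58 to 18.99 and 0.755 to 1.07 FPKM. Endothelial sums stayed under 0.3 FPKM, with Cdh5 at 0 in 6 libraries. Muscle markers summed to 3.17 to 12.1 FPKM in vSSC and 1.94 to 2.81 in lbSSC, with the highest sum in vSSC replicate 1. Nearly all of this was Mylpf, while Myh3 was at 0 in all 8 libraries. The part of these markers in the member differences was not tested.

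Some members cannot be read apart from their neighbours. The library kit does not mark strand, and 26 of the 77 genes overlap another protein-coding gene, 4 on the same strand and 23 on the opposite one. Of the 22 genes called higher, 4 overlap another protein-coding gene. Mrpl47, which overlaps both Actl6a and Ndufb5, had a difference of 0.01 ± 0.20 (adjusted p 0.990).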

How the data were processed

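RNA of 8 sorted samples was sequenced. The labels' protocols name SMART-Seq v4 for cDNA and Nextera XT for libraries. The submitters' processing notes list Cufflinks 2.1.1, STAR 2.5.2, bcl2fastq 2.19 and build GRCm38, with no annotation named. The authors deposited an FPKM value for each protein-coding gene and library. FPKM is relative to the library's total, so abundant genes shift all others. Read depth is unknown, so precision rests on the replicates.

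Group, replicate and sex came from the labels. Values were transformed to log2(FPKM + 1). The 10729 genes with FPKM of at least 1 in at least 4 libraries, all 77 members included, were tested in R 4.3.3 with limma 3.58.1 (empirical Bayes, variance trend) and Benjamini-Hochberg adjustment over all of them. All 8 libraries entered each fit, without covariate for site, and with site as covariate for sex. On simulated data for the site comparison (10729 genes), 200 genes were changed and noise was drawn independently for each gene. There, 28% of changes of 0.5 log2 units and 86% of changes of 1 were recovered, and 6% of calls were wrong. The members moved together across libraries, so these rates may not hold for them.

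Members and lists were chosen with earlier results of these data known. Named members were, by rule, the 8 largest called increases (no decrease was called), the 4 highest and 3 lowest in level, 10 genes chosen by role and the 2 with the smallest p in each structural group. Other lists gave the 2 with the smallest p plus fixed genes. Coordinates are those of the deposited table with 1 added to each start, and 84.4% of member starts then equalled GENCODE M21. Alternatives changed the pseudocount, filter, scaling, model and libraries.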

Additional observations from a re-analysis of the deposited data

Results flagged for a closer look

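Of 154 groups of 4 libraries, 77 genes at 2 sites, 3 held a library far from the other 3 by Dixon's criterion, where chance gives about 1 in 20. Mrps33 was 16.7 FPKM in vSSC replicate 1 and 9.07 to 9.95 in the other vSSC libraries. Mrps23 was 27.1 FPKM in vSSC replicate 4 and 41.8 to 43.0 in the others. Mrpl38 was 21.7 FPKM in vSSC replicate 3 and 18.0 to 18.3 in the others.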

How the results depend on the processing

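The number of members called higher in vSSC was 22 in the reported fit, where 14.3% of all tested genes were called higher. It was 10 with no filter on low values (7% of tested genes), 13 under quantile normalization (10.2%) and 12 after rescaling to 1 sum (9.34%). With the length trend removed it was 11 (13%). It was 0 with the cytosolic ribosomal share as covariate (2.18%) and 1 without vSSC replicates 1 and 3 (4.69%). Leaving out 1 library gave 7 to 38, where 7.82% to 17.5% of tested genes were called higher. The cause of these changes was not tested, beyond fewer samples in the last. Calls over all genes, 2518, fell to 615 with that covariate and 1095 without vSSC replicates 1 and 3, and ran from 1534 to 2991 with 1 library left out. The median of the members, 0.39, was 0.0066 with the covariate. Their count called lower was 0 in each of these alternatives and 1, Mrpl10, in the added scaling to the members' own mean.

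The labels do not say whether samples of 1 replicate number share animals. After each gene's site mean was subtracted, same-numbered libraries correlated at 0.257, -0.088, -0.064 and 0.435. Differently numbered pairs ran from -0.362 to 0.206. The libraries were treated as unpaired, and these correlations do not settle that question. With the replicate block, 41 members were called higher, where 18.8% of tested genes were.

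Directions reversed for some genes without a reported call, and for Chchd1. With the covariate the differences were Mrpl17 -0.22, Mrpl33 -0.23, Mrps22 -0.0060, Mrpl47 -0.11, Mrps36 -0.019, Mrps18a -0.062, Mrps18c -0.26, Mrpl10 -0.12, Mrpl11 -0.13, Chchd1 -0.09, Gabpb1 -0.11, Myc 0.37, Tfam -0.23, Polrmt -0.067 and Nrf1 -0.20. Without vSSC replicates 1 and 3, Mrpl10 was -0.0061, Myc 0.16, Tfam -0.028 and Polrmt -0.12. Median-of-ratios scaling gave Mrpl47 -0.079, Mrpl10 -0.029 and Nrf1 -0.069, and rescaling without cytosolic ribosomal proteins gave -0.073, -0.020 and -0.062. Rescaling to 1 sum gave Mrpl47 -0.12, Mrpl10 -0.075, Mrpl37 -0.029, Tfam -0.032 and Nrf1 -0.11. Quantile normalization gave Mrpl10 -0.11, Mrpl37 -0.014 and Nrf1 -0.00020. Removing the length trend gave Mrpl47 -0.040, Mrpl10 -0.10 and Mrpl37 -0.082. Mrpl47 was -0.0013 with a pseudocount of 0.1, and Nrf1 was -0.0025 with library weights. With 1 library left out, Mrpl47 ranged from -0.12 to 0.20, Tfam from -0.034 to 0.20 and Nrf1 from -0.080 to 0.13.

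Depth is unknown, the number of animals per sample is not given, and 4 libraries per site limit what can be detected.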
